A study of Mus musculus with 8 samples.

Results

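The 10 genes described here, out of 32285 in the deposited table, encode the transcription factors and recombination enzymes of early lymphoid development: Ebf1, Pax5, Tcf3, Foxo1, Ikzf1, Ikzf2, Ikzf3, Dntt, Rag1 and Rag2. They were chosen by name, with earlier results of these data known, and all 10 were found in the table. The question was in which order they come on from the stem cell to the B lineage. The nuclei came from mouse bone marrow cells sorted as LSK, which means without lineage markers and with Sca1 and ckit on the surface, a fraction that holds stem cells and early progenitors. The series compared wild-type (WT) mice with T58A littermates, which carry a point mutation of MYC, and names 4 RNA samples, 2 per genotype and each from 2 mice, with 4 paired chromatin accessibility samples that were not analysed here. The table is named for T58A alone, and no label or header ties a nucleus to a mouse, a replicate or a genotype. Genotypes were therefore not compared, and the table was read as 1 sample with no test and no p-value.

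In textbook accounts, a multipotent progenitor that turns lymphoid first raises Ikaros and terminal transferase. E2A and then EBF1 switch on the B lineage program, FOXO1 acts with them, and PAX5 locks the fate in. The RAG enzymes and terminal transferase then cut and edit the gene segments that become antigen receptors.

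The 8708 nuclei held 45723860 unique molecular identifier (UMI) counts, each a counted RNA molecule, with a median of 4147.5 per nucleus. Barcodes carry a suffix from 1 to 4, and these 4 barcode sets held 721 to 2999 nuclei with median depths from 3035 to 6764 UMIs. Mitochondrially encoded RNA took 24.6% and 24.2% of the UMIs in sets 1 and 3, and 9.98% and 9.22% in sets 2 and 4. The sets are given side by side as the file has them and are not called replicates. Among the barcode sequences, 36 occurred in more than 1 set. Kit, the gene of ckit, had a UMI in 73.0% of nuclei and Ly6a, the gene of Sca1, in 3.81%.

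Nuclei were sorted into gates by UMIs of marker genes that include none of the 10 genes. A gate name means only that a nucleus met a rule on which markers were present and, for some gates, absent. The path ran over 5 gates: stem (334 nuclei, by genes such as Hlf, Mecom and Procr), multipotent (540, by Flt3), early lymphoid (651, by Flt3, Cmah, Arpp21, Fgf13 and Il12a without Il7r), Il7r lymphoid (352, the same genes with Il7r) and B lineage (158, by at least 3 of 10 genes such as Cd79a, Vpreb1 and Blnk). The stem rule asked for at least 4 of 7 genes and no Flt3 UMI. The multipotent rule asked for Flt3 with Cd34 or Cdk6, no UMI of Hlf or Il7r and none of the other early lymphoid genes. The early lymphoid rule asked for at least 3 of its 5 genes, and the Il7r lymphoid rule for at least 2 with at least 1 Il7r UMI. Steps between these gates are thus partly set by which markers were detected. A further 8 gates took nuclei with markers of other lineages, 569 nuclei met more than 1 rule and were left out, and 4442 met none. Median depth along the path was 3422.5, 3341.5, 5455, 5383.5 and 3950.5 UMIs. The B lineage gate held 61, 6, 56 and 35 nuclei of sets 1 to 4, so its set 2 values rest on 6 nuclei. Of its nuclei, 55 had exactly 3 marker genes, and 149 nuclei of the table were 1 marker gene short of its rule. Other gates had many nuclei at their edge as well. The fewest marker genes allowed were found in 255 of 334 stem and 355 of 651 early lymphoid nuclei. Of 352 Il7r lymphoid nuclei, 148 had 1 Il7r UMI and 42 had exactly 2 early lymphoid genes.

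Levels are counts per 1000000 UMIs (CPM) of all nuclei of a gate, with exact Poisson 95% intervals that cover counting error only. Levels of different genes are not compared, since the counts are not corrected for gene length. A gene was called higher or lower between gates when its CPM plus 10 differed by at least 1.5-fold in the same direction in all 4 sets, with at least 50 counts over both gates. Fold ratios are without an added value, while values on the log2 scale use CPM plus 10, so they are not read against each other. Comparisons that share a gate are not independent of each other.

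The 150 bases before the transcription start are shown for 6 of the genes. Ebf1, Pax5 and Foxo1 were called higher at the last step of the path, the first 2 of them also at the step before it. Dntt went down at the last step, and the Rag pair encodes the recombinase. The sequences are from RefSeq on build GRCm38.p6, which covered 8 of the 10 genes. They are written on the gene's own strand with motif letters in capitals.
Ebf1, chr11:44617950-44618099, plus strand: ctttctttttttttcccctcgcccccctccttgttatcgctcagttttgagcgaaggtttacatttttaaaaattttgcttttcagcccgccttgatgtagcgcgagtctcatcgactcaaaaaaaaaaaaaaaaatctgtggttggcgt
Pax5, chr4:44710695-44710844, minus strand: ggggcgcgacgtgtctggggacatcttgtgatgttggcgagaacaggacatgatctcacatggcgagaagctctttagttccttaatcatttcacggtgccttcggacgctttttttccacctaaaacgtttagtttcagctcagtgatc
Foxo1, chr3:52268187-52268336, plus strand: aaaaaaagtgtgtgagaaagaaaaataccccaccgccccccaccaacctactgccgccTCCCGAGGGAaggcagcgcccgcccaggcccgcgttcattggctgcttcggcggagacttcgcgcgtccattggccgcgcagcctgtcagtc
Dntt, chr19:41029125-41029274, plus strand: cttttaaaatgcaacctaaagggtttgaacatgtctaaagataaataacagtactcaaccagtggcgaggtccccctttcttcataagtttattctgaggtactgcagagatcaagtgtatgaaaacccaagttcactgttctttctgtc
Rag1, chr2:101649533-101649682, minus strand: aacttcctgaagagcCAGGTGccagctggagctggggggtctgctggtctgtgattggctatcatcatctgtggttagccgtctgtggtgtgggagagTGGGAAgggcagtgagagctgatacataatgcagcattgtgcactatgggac
Rag2, chr2:101624562-101624711, plus strand: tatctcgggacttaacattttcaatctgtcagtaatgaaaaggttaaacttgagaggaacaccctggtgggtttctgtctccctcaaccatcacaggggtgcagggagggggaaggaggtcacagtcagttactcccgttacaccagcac
The 250 bases before each start were searched on both strands for letters of 5 motifs. The EBF1 motif was TCCC and GGGA with any 2 bases between them. The motif of E2A, the product of Tcf3, was CAGGTG. That of FOXO factors was GTAAACA, that of the Ikaros family was TGGGAA, and the TATA box was TATAAA. The Foxo1 window held TCCCGAGGGA from base -92 to base -83, and 0.779% of all 32851 promoter windows held letters of that EBF1 motif. Rag1 held CAGGTG from base -135 to base -130, letters found in 17.2% of windows, and TGGGAA from base -52 to base -47, found in 21.6%. The windows shown for Ebf1, Pax5, Dntt and Rag2 held none of these letters, which were also searched in the 100 bases before the part shown. A further RefSeq window of Ebf1, not shown, held TTCCCA, the Ikaros letters on the other strand, from base -207 to base -202. A match is a description of letters and not a site.

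The genes reached their highest levels at different gates. Taking onset as the earliest gate with at least 50% of a gene's highest path level, Ikzf2 was on from the stem gate, Ikzf1 from the early lymphoid gate, and Dntt and Rag2 from the Il7r lymphoid gate. Ebf1, Pax5, Tcf3, Foxo1, Ikzf3 and Rag1 reached that level only in the B lineage gate. Each set on its own gave these same gates for Ebf1, Pax5, Foxo1, Ikzf1 and Ikzf2. Tcf3 and Ikzf3 differed in set 2, Dntt and Rag1 in set 1, and Rag2 in set 4. Tcf3 and Ikzf1 were never low on the path, with at least 33.9% and 34.5% of their highest level at every gate. The onset gates depended on the cut, and Dntt already stood at 42.5% of its highest level in the early lymphoid gate. With onset at 25% of the highest level, Ikzf1 and Tcf3 moved to the stem gate. Dntt moved to the early lymphoid gate and Rag1 to the Il7r lymphoid gate. At 10%, Foxo1 also moved to the stem gate and Rag2 to the multipotent gate, the latter on 4 counts, 3 of them in set 4. Ebf1, Pax5, Ikzf2 and Ikzf3 kept their gate at both cuts. Onset scales each gene to its own highest level and does not give the order of first detection. Ebf1 already stood at 498 CPM in the Il7r lymphoid gate, with a UMI in 41.2% of nuclei, where Rag2 had 35 counts and a UMI in 8.81%.

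**Figure D1:**
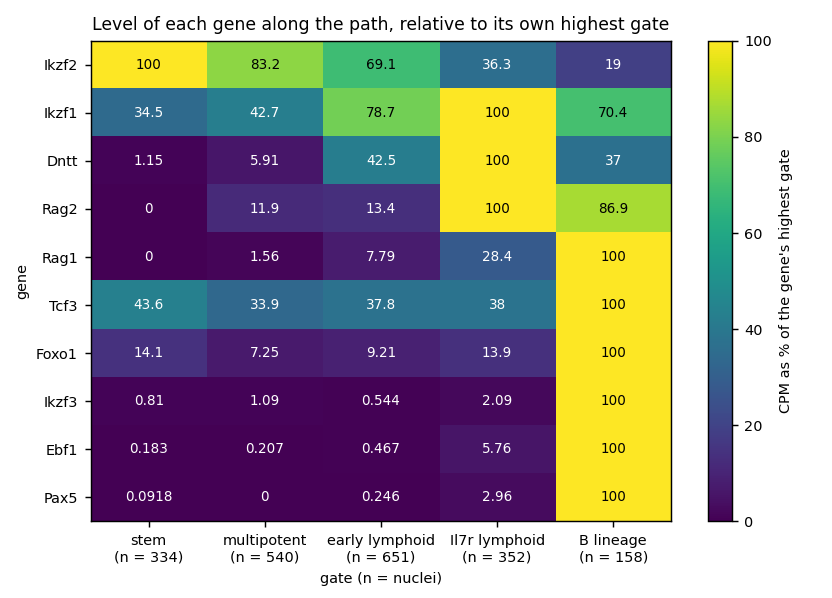
Heat map of the CPM of each gene in the 5 path gates as a percent of that gene's own highest gate, with the percent printed in each cell and the number of nuclei under each gate. Ikzf2 starts at 100% in the stem gate and ends at 19.0%, Dntt peaks in the Il7r lymphoid gate with 37.0% left in the B lineage gate, and Ebf1 and Pax5 stay at or below 5.76% until the B lineage gate.

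Ebf1 encodes the factor that specifies the B lineage. Its level was 15.8 CPM (95% interval 9.92 to 24.0) in the stem gate, 17.9 in the multipotent gate, 40.4 (34.5 to 47.0) in the early lymphoid gate, 498 (469 to 529) in the Il7r lymphoid gate and 8649 (8434 to 8868) in the B lineage gate. In the B lineage gate sets 1 to 4 stood at 6069, 6584, 7219 and 12600 CPM, and in the Il7r lymphoid gate at 328, 420, 889 and 439. All sets of the B lineage gate thus lay above all sets of the Il7r lymphoid gate, and these above the early lymphoid sets at 52.6, 17.2, 66.2 and 35.5 CPM. Ebf1 was called higher at both of these steps, by 12.3-fold (10.5 to 14.6) and then 17.4-fold (16.3 to 18.6). From the multipotent to the early lymphoid gate the ratio was 2.26 (1.57 to 3.31) and set 2 did not follow it, so that step was not called. On the log2 scale it was 0.85. It was called without set 2, at 0.99, and with clusters in place of gates, at 1.76. The stem and multipotent gates did not differ beyond counting error, with a ratio of 1.13 (0.649 to 2.01), and the sets went both ways. In the multipotent gate 1 nucleus held 17 of the 37 Ebf1 UMIs and set 1 held 25, and without set 1 the level was 9.08 CPM. The step to the early lymphoid gate was 1.30 on the log2 scale without set 1 and 0.41 without set 3, and called in neither case.

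A UMI of Ebf1 was present in 6.59% of stem, 3.70% of multipotent, 10.8% of early lymphoid, 41.2% of Il7r lymphoid and 96.8% of B lineage nuclei. The erythroid gate, which should lack the gene, had 5.70% at a median of 7343.5 UMIs. With every nucleus thinned to 2000 UMIs, the shares were 3.61%, 2.22%, 6.30%, 29.6% and 95.1% along the path and 1.28% in the erythroid gate. The thinning left out 29, 90, 32, 11 and 35 nuclei of the path gates and 74 erythroid nuclei. Shares in the stem and multipotent gates were thus close to or below the erythroid share before thinning and above it after thinning. The thinned shares rest on 11 stem, 10 multipotent and 6 erythroid nuclei. Their intervals, 1.81% to 6.36%, 1.07% to 4.05% and 0.470% to 2.76%, overlap.

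Counts per nucleus showed where the Ebf1 RNA lay. Among Il7r lymphoid nuclei 207 of 352 had no Ebf1 UMI, 51 had 1, 57 had 2 to 9, and 37 had 10 or more. Those 37 nuclei, 10.5% of the gate, held 74.4% of its Ebf1 UMIs. In the B lineage gate 116 of 158 nuclei had 10 or more, with a median of 20 and a maximum of 209. In the early lymphoid gate 5 nuclei had 10 or more, in the multipotent gate 1, and in the stem and erythroid gates 0.

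Pax5 encodes the factor that commits cells to the B lineage. It was near absent before the Il7r lymphoid gate, with 1 count in the stem gate, 0 in the multipotent gate and 8 in the early lymphoid gate. It stood at 23.2 CPM (17.2 to 30.6) in the Il7r lymphoid gate and at 784 (720 to 852) in the B lineage gate. Sets 1 to 4 gave 7.03, 24.4, 59.6 and 14.6 CPM in the former and 553, 1231, 520 and 1143 in the latter, with no overlap. The step into the B lineage gate was 33.8-fold (25.3 to 46.1). The step before it was 12-fold (5.64 to 29.3) and was called, but it rests on 58 counts over both gates, and with any of sets 2, 3 or 4 left out it fell under the minimum of 50. On the log2 scale that step was 1.48. Without the 5% of nuclei with the most UMIs it was not called, at 1.40, and with CPM plus 50 it was 0.49. Against the multipotent gate, where 0 counts allow up to 1.45 CPM, the B lineage level was at least 541-fold higher.

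Tcf3 encodes the E2A proteins, which act above EBF1. It was present throughout, at 51.1 CPM (39.9 to 64.4) in the stem gate, 39.7, 44.2 and 44.5 in the next gates and 117 (93.2 to 145) in the B lineage gate. Sets 1, 3 and 4 stood at 156, 126 and 103 CPM in the B lineage gate and between 34.8 and 51.6 in the Il7r lymphoid gate, while set 2 had 0 counts over its 6 B lineage nuclei. The ratio of the B lineage to the Il7r lymphoid gate was 2.63 (1.94 to 3.56). It was not called because of set 2, and without that set it was called, at 1.45 on the log2 scale against 1.22 with all sets. Outside the path, the erythroid gate had 73.1 CPM (65.2 to 81.7), above the first 4 path gates.

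Foxo1 encodes a forkhead factor that acts with E2A and EBF1 and drives the Rag genes. It was at 55.4 CPM (43.7 to 69.3) in the stem gate, 28.5 (21.7 to 36.8) in the multipotent gate, 36.2 in the early lymphoid gate, 54.7 (45.3 to 65.5) in the Il7r lymphoid gate and 393 (349 to 442) in the B lineage gate. The 4 sets of the B lineage gate, at 385, 391, 329 and 469 CPM, were close to each other and far from those of the Il7r lymphoid gate at 28.1, 37.9, 72.0 and 65.8. The step into the B lineage gate was 7.19-fold (5.78 to 9.0) and called. The lower level in the multipotent than in the stem gate, 1.94-fold (1.37 to 2.77), was also called, at -0.76 on the log2 scale, but the set ranges overlapped. The call was lost without set 4, at -0.51. It was lost with clusters in place of gates as well, at -0.43. Foxo1 was at 207 CPM (152 to 276) in the plasma cell gate, with set values of 251 in set 1, 196 in set 3 and 0 in set 4, which had 2 nuclei there, while set 2 had none.

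**Figure D2:**
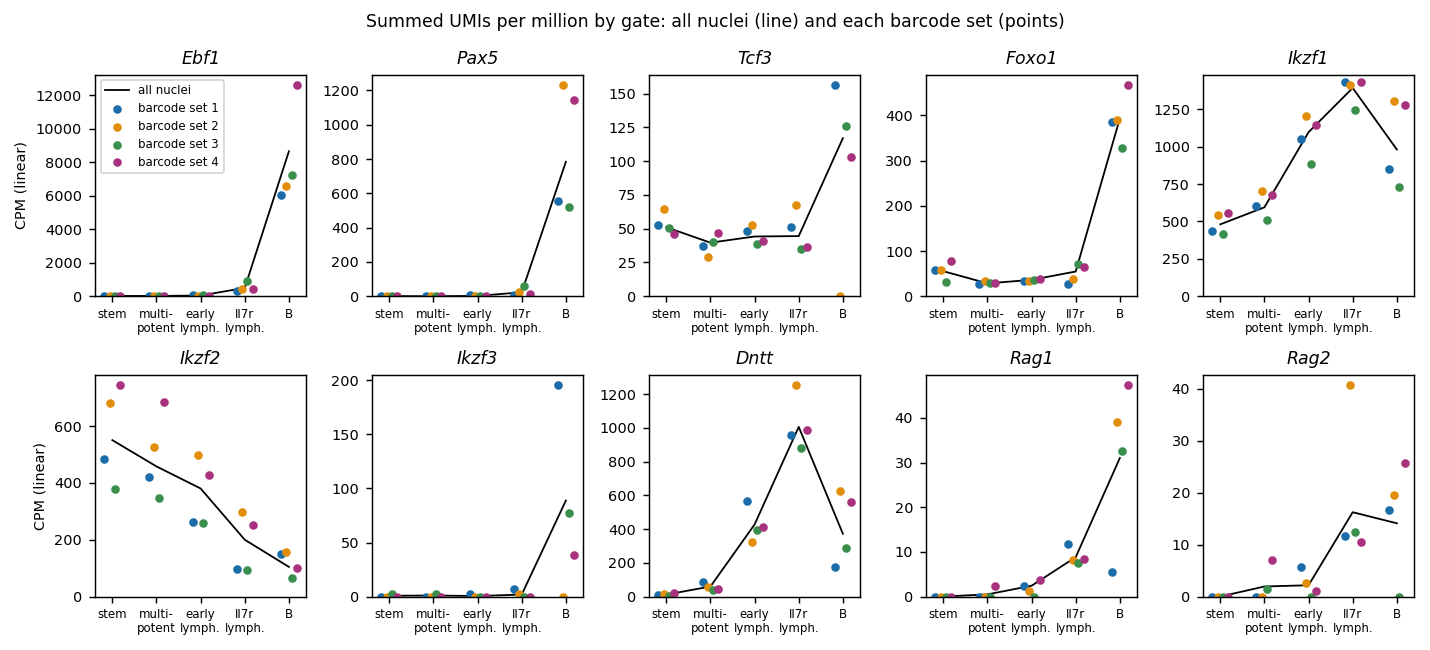
CPM on a linear axis from 0 for each of the 10 genes in the 5 path gates, with the line joining the values of all nuclei and a point for each of the 4 barcode sets. Ebf1, Pax5 and Foxo1 lie far higher in the B lineage gate in every set, Dntt peaks one gate earlier in every set, and Tcf3 and Ikzf3 of set 2 lie at 0 in the B lineage gate.

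Ikzf1 encodes Ikaros, a zinc finger protein needed for lymphoid progenitors. It was abundant at every gate: 481 CPM (445 to 519) in the stem gate, 595 (562 to 629) in the multipotent, 1097 (1065 to 1129) in the early lymphoid, 1393 (1344 to 1444) in the Il7r lymphoid and 982 (910 to 1057) in the B lineage gate. Sets 1 to 4 were at 603, 705, 512 and 676 CPM in the multipotent gate and at 1054, 1208, 887 and 1142 in the early lymphoid gate, where every set had its largest step. That step, 1.85-fold (1.73 to 1.97), was called, at 0.87 on the log2 scale, but with clusters in place of gates it was 0.34 and not called. All 4 sets were lower in the B lineage than in the Il7r lymphoid gate, by 1.42-fold (1.31 to 1.54) over all nuclei, which is short of the 1.5-fold size. Ikzf1 was not particular to the path, with 1017 CPM (987 to 1047) in the erythroid gate and 425 (393 to 459) in the megakaryocyte gate.

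Ikzf2 encodes Helios, a relative of Ikaros known from stem cells and regulatory T cells. It ran the other way, from 551 CPM (512 to 591) in the stem gate through 458, 380 and 200 to 104 (81.9 to 131) in the B lineage gate. In the stem gate sets 1 to 4 were at 485, 680, 380 and 746 CPM, and in the B lineage gate at 151, 156, 65.0 and 98.9, so the gates did not overlap. The level was 5.28-fold lower (4.15 to 6.79) in the B lineage than in the stem gate. The step called lower was the one from the early lymphoid to the Il7r lymphoid gate, 1.90-fold (1.71 to 2.12). At every gate up to Il7r lymphoid, sets 2 and 4 were above sets 1 and 3, the same sets that had less mitochondrial RNA and deeper nuclei, whose part in this was not tested. The highest Ikzf2 levels lay outside the path, at 2044 CPM (1784 to 2331) in 25 mast cell and basophil nuclei and 1569 (1291 to 1890) in 20 T, NK and innate lymphoid nuclei.

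Ikzf3 encodes Aiolos, the family member of later B cells. It had 1, 2, 2 and 4 counts in the gates from stem to Il7r lymphoid, and 63 in the B lineage gate, which is 88.8 CPM (68.3 to 114). There sets 1 to 4 were at 195, 0, 77.2 and 38.7 CPM, so set 2 with its 6 nuclei kept the step from being called. The ratio to the Il7r lymphoid gate was 47.9 (17.8 to 181), and without set 2 the step was called, at 3.18 on the log2 scale against 3.06 with all sets. Ikzf3 was also found at 311 CPM (195 to 471) in the T, NK and innate lymphoid gate and at 153 (106 to 214) in the plasma cell gate.

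**Figure D3:**
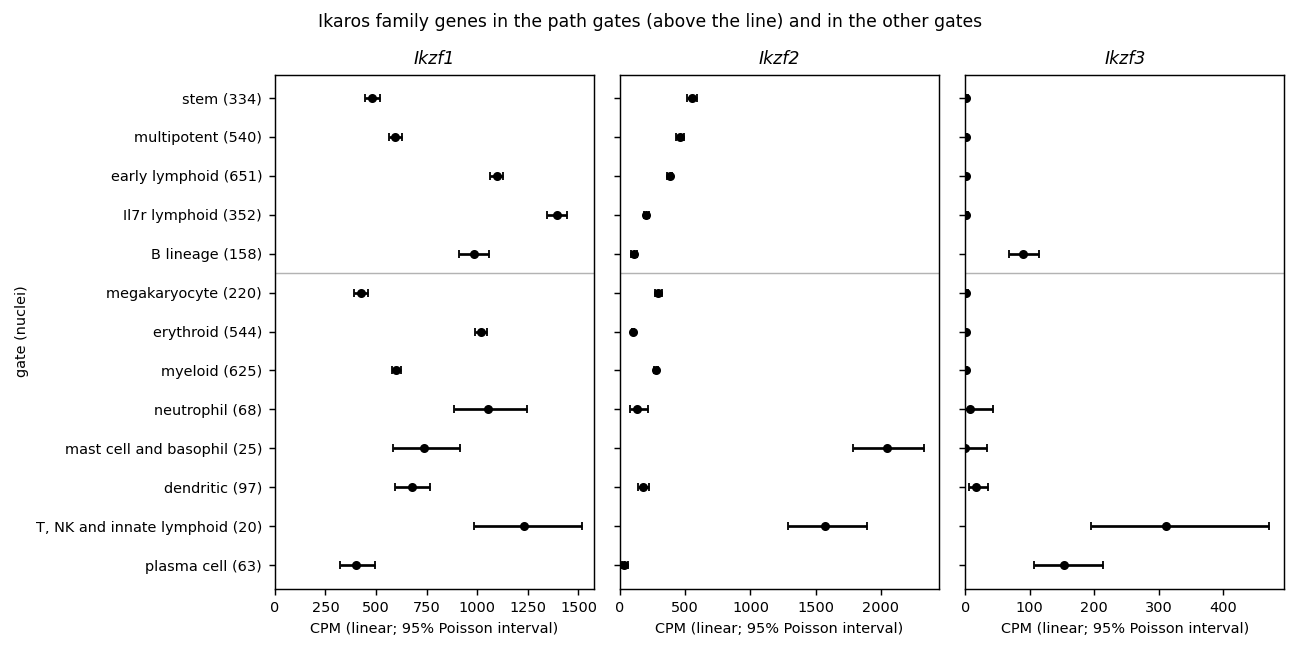
CPM on linear axes, with 95% Poisson intervals, of Ikzf1, Ikzf2 and Ikzf3 in the 5 path gates (above the line) and the 8 other gates, with the number of nuclei of each. Ikzf1 is high in many gates, Ikzf2 is highest in the 25 mast cell and basophil nuclei at 2044 CPM, and Ikzf3 stands clear of 0 in the B lineage, T, NK and innate lymphoid, and plasma cell gates.

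Dntt encodes terminal transferase, which adds bases at the joints of antigen receptor genes. It rose at each step up to the Il7r lymphoid gate: 11.5 CPM (6.58 to 18.7) in the stem gate, 59.5 (49.4 to 71.0) in the multipotent gate, 427 (408 to 448) in the early lymphoid gate and 1006 (964 to 1049) in the Il7r lymphoid gate. It was back at 372 CPM (329 to 420) in the B lineage gate. In the Il7r lymphoid gate sets 1 to 4 were at 957, 1252, 879 and 986 CPM, above every set of the early lymphoid gate (568, 321, 397 and 414) and of the B lineage gate (173, 625, 288 and 559). The steps were 5.17-fold (3.06 to 9.32), 7.18-fold (5.98 to 8.70) and 2.35-fold (2.21 to 2.51) higher and then 2.70-fold (2.38 to 3.08) lower, and all were called. On the log2 scale the step to the multipotent gate was 1.69 and the step to the Il7r lymphoid gate 1.22. Thinning to 2000 UMIs before gating ended the call of both, at 1.83 and 0.56, so the size of the former did not drop. A Dntt UMI was found in 4.79%, 12.8%, 66.7%, 85.8% and 44.9% of nuclei along the path and in 2.76% of erythroid nuclei. After thinning these were 1.97%, 9.11%, 45.7%, 73.0% and 39.0%, with 0.638% in the erythroid gate.

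Rag1 and Rag2 encode the recombinase that cuts antigen receptor genes. They lie on chromosome 2 with their 3' ends toward each other and 5723 bases between them in the RefSeq annotation (Rag2 at chr2:101624712-101632528, Rag1 at chr2:101638252-101649532). The table held 69 UMIs of Rag1 in 60 nuclei and 91 of Rag2 in 82 nuclei, so no step of either reached the 50 counts needed for a call. Rag1 had 0, 1, 10, 19 and 22 counts along the path, or 0, 0.484, 2.42, 8.81 (5.30 to 13.8) and 31.0 CPM (19.4 to 47.0). Rag2 had 0, 4, 9, 35 and 10 counts, or 0, 1.93, 2.18, 16.2 (11.3 to 22.6) and 14.1 CPM (6.76 to 25.9). Rag1 was thus 3.52-fold higher (1.82 to 6.88) in the B lineage than in the Il7r lymphoid gate, whereas the Rag2 ratio was 0.869 (0.384 to 1.79). Rag1 sets 1 to 4 were at 11.7, 8.13, 7.45 and 8.35 CPM in the Il7r lymphoid gate and 5.58, 39.1, 32.5 and 47.3 in the B lineage gate, so set 1 went against the others. Rag2 sets were at 11.7, 40.6, 12.4 and 10.4 CPM and then 16.8, 19.5, 0 and 25.8, with overlap. The stem gate had 0 counts of both, which allows up to 2.16 CPM. Against that limit Rag1 in the B lineage gate was at least 14.4-fold higher and Rag2 in the Il7r lymphoid gate at least 7.52-fold. The exact intervals of these ratios, which also hold the counting error of the higher gate, start at 10.7 and 5.80. The difference between the Rag1 and Rag2 patterns was not tested.

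Counted over all 10 genes, Dntt and Ikzf1 made up the calls of higher levels at the steps up to the early lymphoid gate. Ebf1, Pax5 and Dntt made them up at the step to the Il7r lymphoid gate, and Ebf1, Pax5 and Foxo1 at the last. From the stem to the multipotent gate 1 gene was called higher (Dntt) and 1 lower (Foxo1) of 6 measured, where the rule called 2.84% of all measured genes higher and 8.17% lower. From the multipotent to the early lymphoid gate 2 of 6 were higher (Ikzf1, Dntt) and 0 lower, against 3.96% and 0.616%. From the early lymphoid to the Il7r lymphoid gate 3 of 7 were higher (Ebf1, Pax5, Dntt) and 1 lower (Ikzf2), against 1.05% and 1.45%. From the Il7r lymphoid to the B lineage gate 3 of 8 were higher (Ebf1, Pax5, Foxo1) and 1 lower (Dntt), against 3.71% and 7.88%. Against the stem gate, the early lymphoid gate had 3 of 6 higher (Ebf1, Ikzf1, Dntt) and 0 lower, against 5.36% and 5.59%. The Il7r lymphoid gate had 4 of 7 higher than the stem gate (Ebf1, Pax5, Ikzf1, Dntt) and 1 lower (Ikzf2), against 7.56% and 8.56%. For the B lineage against the stem gate 5 of 8 were higher (Ebf1, Pax5, Foxo1, Ikzf1, Dntt) and 1 lower (Ikzf2), against 9.85% and 14.4%. The calls describe this table and carry no test.

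Within single nuclei, most nuclei with Pax5 also held Ebf1, but not the reverse. Of 210 nuclei with a Pax5 UMI, 83.3% (77.6% to 88.1%, Clopper-Pearson 95%) also had Ebf1, while 20.9% (18.2% to 23.9%) of the 836 nuclei with Ebf1 had Pax5. The table held 8886 Ebf1 and 728 Pax5 UMIs, and the part of that difference in these shares was not tested. In the B lineage gate 111 of 112 Pax5 nuclei had Ebf1. All 71 B lineage nuclei with Dntt had Ebf1, against 94.3% of those without Dntt. In the Il7r lymphoid gate 92.4% of the 145 nuclei with Ebf1 also had Dntt, and 44.4% of the 302 with Dntt had Ebf1. Of nuclei without Dntt in that gate 22.0% had Ebf1. After thinning, the 2 shares of the Il7r lymphoid gate were 87.1% and 35.3%. All 31 Rag2 nuclei of the Il7r lymphoid gate had Dntt, found in 85.8% of that gate. Of the 31, 16 (51.6%, 33.1% to 69.9%) had Ebf1, found in 41.2% of the gate, a share within that interval. After thinning, 10 of 11 Rag2 nuclei had Dntt and 4 had Ebf1. In the B lineage gate all 19 Rag1 nuclei and all 8 Rag2 nuclei had Ebf1, a gene present in 96.8% of that gate. Only 2 nuclei of the table, both in the B lineage gate, had a UMI of Rag1 and of Rag2. With 60 and 82 nuclei positive at all, mostly with 1 UMI, the depth cannot show how often the pair is expressed together.

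Inside the Il7r lymphoid gate, nuclei were also divided by their Ebf1 UMIs, classes chosen after the values were seen. With 0, 1, 2 to 9 and 10 or more Ebf1 UMIs, Foxo1 was at 28.9 CPM (20.3 to 40.1), 48.7 (26.7 to 81.8), 66.1 (41.9 to 99.1) and 163 (119 to 217). In the class of 10 or more its sets 1 to 4 stood at 119, 83.1, 185 and 171 CPM, above their own values with no Ebf1 UMI of 17.7, 26.4, 20.4 and 39.0. Pax5 had 3, 0, 2 and 45 counts over the same classes, so 45 of the 50 counts of the gate lay in the 37 nuclei with the most Ebf1. The last class was at 163 CPM (119 to 217), and its 5 nuclei of set 1 held none. Rag1 had 5, 0, 3 and 11 counts, at 4.02, 0, 8.62 and 39.7 CPM (19.8 to 71.1), and Rag2 stood at 15.3, 6.96, 25.9 and 18.1 CPM with intervals that overlap. Dntt was at 902 (850 to 956), 957, 1161 (1050 to 1279) and 1329 CPM (1197 to 1472), so over all sets it was not lower where Ebf1 was highest. In set 3 it stood at 815 against 819 CPM with no Ebf1 UMI. Ikzf2 was at 207, 171, 207 and 188 CPM, with intervals that overlap. Median depth was 5295, 5302, 5325 and 7308 UMIs, and 17 of the 37 nuclei of the last class had 2 B lineage marker genes, 1 short of the B lineage rule. The part of depth and of the gate's edge in these differences was not tested.

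**Figure D4:**
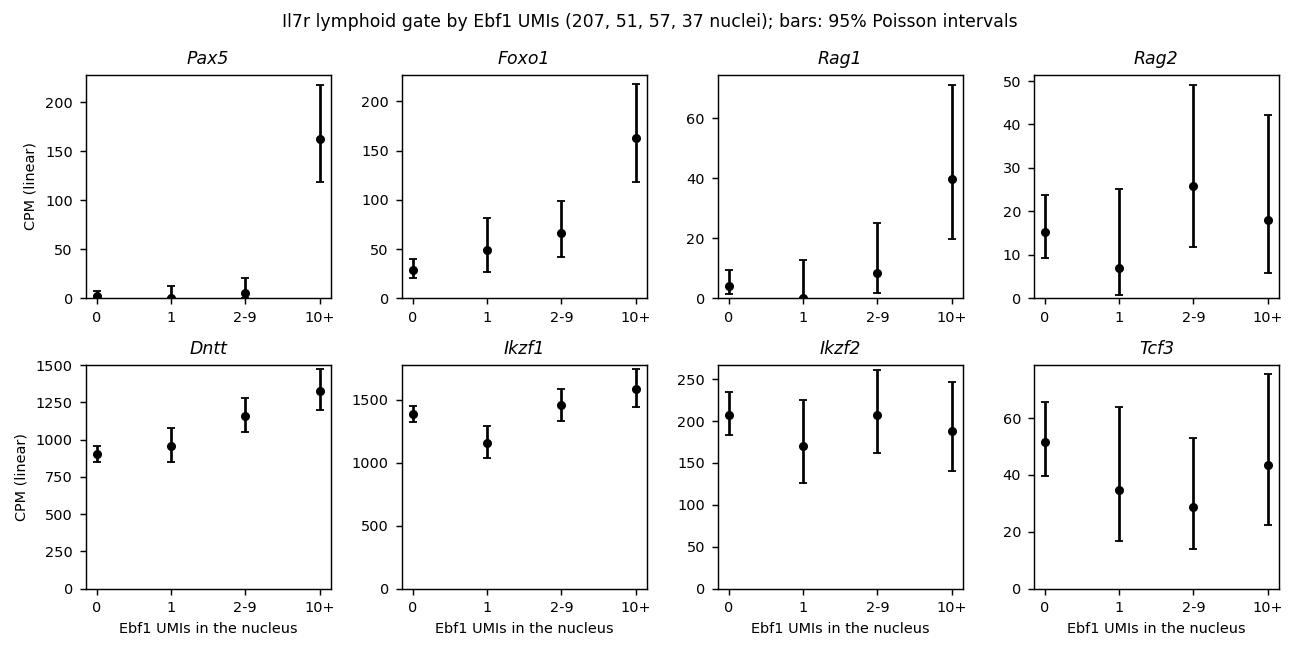
CPM on linear axes from 0, with 95% Poisson intervals, of 8 genes in Il7r lymphoid nuclei with 0, 1, 2 to 9 and 10 or more Ebf1 UMIs (207, 51, 57 and 37 nuclei). Pax5 stands apart in the last class, the Rag1 interval there overlaps that of the class before it, the Foxo1 points lie higher from class to class, the Dntt points do not go down, and Rag2, Ikzf2 and Tcf3 have intervals that overlap between all classes.

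The B lineage gate itself was mixed. It was divided, after the values were seen, into 81 nuclei with an Il7r UMI (median depth 5023) and 77 without (2522). Nuclei with Il7r had 2.00-fold more Ebf1 (1.89 to 2.13), at 10520 against 5248 CPM, 1.57-fold more Pax5 (1.30 to 1.91), at 900 against 573, and 2.29-fold more Dntt (1.68 to 3.18), at 465 against 203. Rag1 had 19 counts against 3, a ratio of 3.48 (1.02 to 18.3), and Rag2 9 against 1. Ebf1 was higher with Il7r in all 4 sets, but Pax5 only in sets 1 and 3. In set 2 Pax5 was at 1139 with and 1542 CPM without Il7r, and in set 4 at 1107 and 1325. Dntt was higher with Il7r in sets 1 to 3 and at 546 against 624 CPM in set 4, where Rag1 was at 46.4 against 52.0. Sets 1 to 4 gave 23, 4, 27 and 27 nuclei with and 38, 2, 29 and 8 without Il7r, and mitochondrial RNA took 13.7% and 21.7% of the UMIs. The part of the sets and of that RNA in these ratios was not tested. Over all sets Ikzf3 went the other way, with 35.0 CPM against 187, or 5.35-fold more (2.98 to 10.1) in nuclei without Il7r. Foxo1 (426 and 334 CPM), Ikzf1 (963 and 1015), Ikzf2 (109 and 95.5) and Tcf3 (101 and 147) had ratios whose intervals include 1. Nuclei without Il7r also had more RNA of later B cells, with Ms4a1 at 107 against 13.1 CPM and Ighm at 2491 against 413. The summed level of 8 plasma cell genes was 4831 CPM (234 to 9225 over the sets) against 282 (75.9 to 526), with 7 of 8 detected and Tnfrsf17 at 0 in both. Most of both sums came from Igkc, at 3522 against 177 CPM, and Jchain, at 1082 against 37.1. Jchain, one of the 8, had a UMI in 22.1% and 16.1% of these nuclei and in 29.0% of erythroid nuclei. Without the 55 B lineage nuclei that held a UMI of any of 6 plasma cell genes, the gate had 76.3 CPM of Ikzf3, 727 of Pax5 and 8542 of Ebf1, an alternative chosen after seeing the data. No call of the 10 genes changed with it, and Ikzf3 then had under 50 counts.

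Over the whole B lineage gate the plasma cell genes summed to 1894 CPM (103 to 4452 over the sets), most of it from Igkc and Jchain. Beside them, markers of other cells were present at lower levels. The 7 stem genes summed to 587 CPM (430 to 2345) with Rarb at 0, against 4618 in the stem gate. They summed to 839 in the Il7r lymphoid, 582 in the erythroid and 593 in the myeloid gate, so the B lineage sum was not above that of other lineages. The 9 dendritic genes summed to 420 CPM (345 to 528) with Cadm1 at 0. They include Flt3, which also sets gates of the path. Flt3 alone was at 378 CPM in B lineage nuclei with Il7r, where the 9 genes summed to 430. In those without Il7r it was at 211, of a sum of 402. The 10 T, NK and innate lymphoid genes summed to 21.2 CPM (0 to 61.4 over the sets) with 5 detected and Trbc1, Trbc2, Bcl11b, Cd3e and Cd3g at 0. The 9 erythroid genes summed to 38.1 CPM (0 to 48.8) with 6 detected, and the 9 myeloid genes to 262 (219 to 302) with 7 detected. The myeloid genes summed to 399 CPM in the Il7r lymphoid gate and to 73.1 in the erythroid gate. In the plasma cell gate Ebf1 was at 198 CPM (144 to 266), while Pax5, with 0 counts in 63 nuclei, was at most 13.5 CPM by the limit of 3 counts.

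The genes around these 10 were read from 3 lists, for the B lineage against the stem gate. Of 31 early lymphoid regulators 23 were measured, 7 were called higher and 4 lower, with a median log2 ratio of 0.47. Over all 5910 measured genes 9.85% were called higher and 14.4% lower, with a median of -0.04, so the share of lower calls in the list was near that of all genes. The highest ratios were those of Lef1, a WNT pathway factor (629 against 0.720 CPM, log2 ratio 5.90, 1 count in the stem gate), Irf4, a factor of B and plasma cells (74.7 against 0.720, 2.98, not called), and Bach2, a repressor in B cells (1527 against 222, 2.73). The lowest were those of the stem cell factor Lmo2 (120 against 787 CPM, -2.62), Zfp521 (97.3 against 284, -1.46) and Cbfa2t3 (159 against 427, -1.37), all called lower.

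Of 19 genes of recombination and end joining 13 were measured, 4 were called higher and 0 lower, with a median log2 ratio of 0.36, against 9.85%, 14.4% and -0.04 over all measured genes. The called genes were Xrcc6, which encodes the Ku70 end binding protein (141 against 44.6 CPM, 1.47), Parp1, a DNA break sensor (109 against 44.6, 1.12), Hmgb1, a chromatin protein that helps RAG bind DNA (661 against 302, 1.11), and Hmgb2 (426 against 228, 0.87). The lowest were Trp53bp1 (79.0 against 140 CPM, -0.75), Xrcc5, which encodes the Ku80 partner of Ku70 (38.1 against 65.5, -0.65), and Xrcc4 (137 against 185, -0.41), none of them called. The count of calls was 7 without set 2 and 7 with clusters in place of gates, and 2 after thinning to 2000 UMIs and 2 with a minimum of 200 counts.

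Of 22 B lineage genes known downstream of these factors 16 were measured, and 12 were called higher and 0 lower, with a median log2 ratio of 2.87, against 9.85%, 14.4% and -0.04 over all measured genes. The count was 4 after thinning to 2000 UMIs and 3 with a minimum of 200 counts. For 8 of the 12 this is no finding, because they set the gate. Blnk, an adaptor of the B cell receptor (1264 against 3.60 CPM, 6.55), Il7r, the receptor for interleukin 7 (412 against 2.88, 5.03), and Pou2af1, a B cell coactivator (137 CPM, at least 63.4-fold over the limit of 3 counts in the stem gate), had the highest ratios, and Blnk and Pou2af1 set the gate. Ccnd2 (176 against 247 CPM, -0.46), Ccnd3 (430 against 309, 0.47), which encode cyclins, and the kinase gene Btk (168 against 118, 0.47) had the lowest and were not called.

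**Figure D5:**
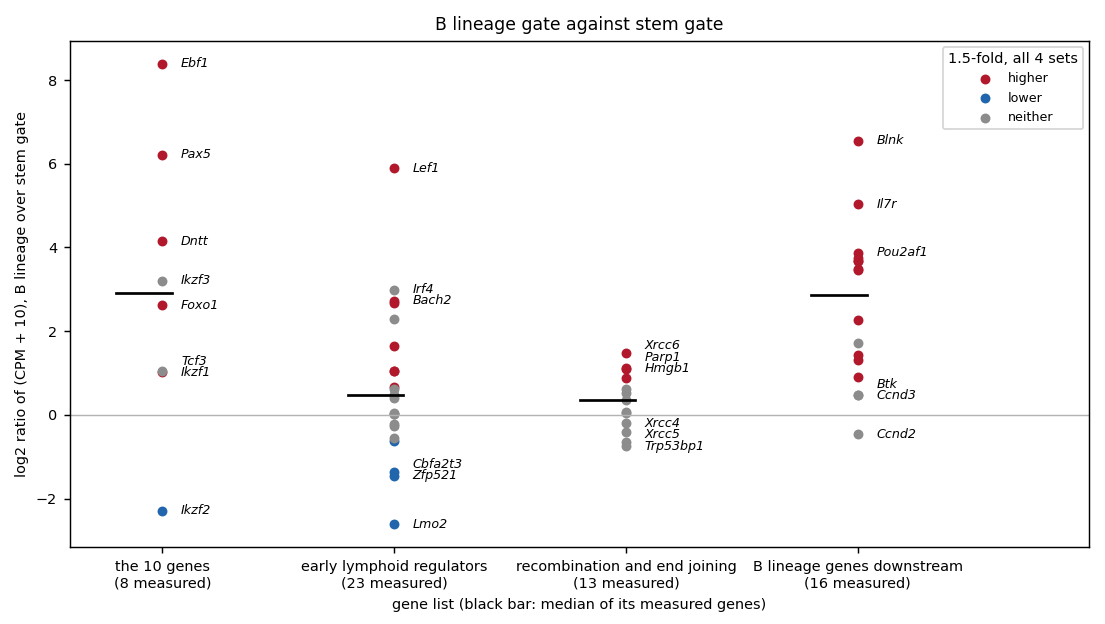
Log2 ratio of CPM plus 10 in the B lineage over the stem gate for each measured gene of the 10 and of the 3 lists, with genes called higher in red, lower in blue and neither in grey, and the median of each list as a black bar. The 10 genes run from -2.29 (Ikzf2) to 8.39 (Ebf1), and the recombination list stays between -0.75 and 1.47.

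Genes with patterns most like each of the 10 were ranked by Pearson correlation of log2(CPM plus 10) over 32 points, which are 8 gates in 4 sets and share libraries, depth and the gating markers. The correlations are descriptions without a p. Ebf1 was most like Blnk (0.97, a gate marker), St6gal1 (0.97) and Colq (0.97), and Pax5 most like Lef1 (0.98), Tmem108 (0.98) and Ebf1 (0.94). Foxo1 was most like Lef1 (0.91), Cd79a (0.90, a gate marker) and Pax5 (0.90). Ikzf3 was most like Irf4 (0.95), Adam19 (0.95) and Atp1b1 (0.92), and Dntt most like Rgl1 (0.94), Jakmip1 (0.93) and Frmd6 (0.93). Among the genes most like Ikzf2 were Atxn1 (0.90) and Il15 (0.89). Looser likeness was found for Ikzf1, with Camsap2 (0.85), Tapt1 (0.84) and Zc3hav1 (0.80), and for Tcf3, with Tarbp1 (0.85), Glcci1 (0.83) and Kctd3 (0.77). Rag1 was most like St6gal1 (0.91), Ebf1 (0.91) and Pax5 (0.90), and Rag2 most like Gm30948 (0.84), Colq (0.84) and Il7r (0.82, a gate marker), each from under 100 counts.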

How the data were processed

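RNA of nuclei from LSK marrow cells was measured with the 10x multiome assay. The authors deposited 1 table of UMI counts per gene and nucleus, with no normalization, whole numbers by a check of its values. Per the submitters' processing notes, Cell Ranger ARC, Seurat and Signac were used with build mm10. Tool versions, annotation, filters on nuclei and the counting of intronic reads are not given in the sources used here. No doublet caller was run.

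The 10 genes, the marker genes and the lists were chosen with earlier results of these data known. The numbers of marker genes a gate needs, the Il7r division of the B lineage gate and the Ebf1 classes were chosen after the values were seen. UMIs were summed per gate and barcode set and scaled to 1000000. Ratios are of CPM without an added value, with exact binomial 95% intervals, and log2 ratios and calls use CPM plus 10. Shares have Clopper-Pearson intervals, and a count of 0 is given a limit of 3 counts. All 10 genes are named, with the 3 most alike of each among genes with at least 200 counts, and the 3 highest and 3 lowest measured genes of each list, except for an item that is not reported here. Any other gene was named after its values were seen. Python 3.11.15, numpy 2.4.6, scipy 1.17.1 and scanpy 1.11.5 (clusters only) were used, and the calling rule was tested on simulated data. The edgeR fit planned for T58A against WT was not run. Alternatives were clusters built without the 10 genes, gates with 1 more marker UMI, thinning, another denominator, fewer nuclei of high UMIs, each set left out, CPM plus 1 or 50, minimums of 0 or 200 counts, and other onset levels.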

Additional observations from a re-analysis of the deposited data

How the results depend on the processing

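No paired analysis was possible because no label or header ties nuclei to samples, and the planned fit of T58A against WT was not run for the same reason. No called ratio of the 10 genes changed its direction under any alternative run, but sizes were less stable. A level or share was counted as moved when it left the counting interval of the reported one. Log2 ratios, which have a value added to the CPM, were set against the interval of the ratio without an added value. That interval need not hold the reported log2 ratio itself, and small changes were not counted, so the counts for log2 ratios are rough. Over the alternatives 125 levels moved and 375 did not, and 174 log2 ratios moved and 666 did not. These totals pool settings that differ much. Thinning before gating moved 32 levels and left 18, and moved 32 log2 ratios and left 38. Clusters moved 20 levels and left 30, and moved 30 log2 ratios and left 40. With CPM plus 1 all 70 log2 ratios stayed, and without the B lineage nuclei holding plasma cell genes all 50 levels did. After thinning, 78 shares of nuclei moved and 44 did not. The number of the 10 genes called between the multipotent and the stem gate, 2 as reported, was 1 with clusters in place of gates, with 1 more marker UMI and with CPM plus 50, 0 after thinning to 2000 UMIs and with a minimum of 200 counts, and 1 to 2 with each set left out. Between the early lymphoid and the multipotent gate it went from 2 to 4 after thinning, and between the early lymphoid and the stem gate from 3 to between 3 and 5 with each set left out. In the B lineage against the stem gate, the recombination list went from 4 calls to 7 with clusters, 2 after thinning, 2 with a minimum of 200 counts and between 4 and 7 with each set left out. The downstream B lineage list went from 12 to 4 after thinning and 3 with that minimum. With onset at 25% or 10% of the highest level, 6 and 4 of the 10 genes kept their gate. Fewer genes pass a higher minimum, and thinned nuclei meet fewer gate rules. Otherwise the cause was not tested. With clusters, Ebf1 from the multipotent to the early lymphoid gate was 1.76 on the log2 scale and called, against 0.85 and not called as reported. The Rag genes, with under 100 UMIs each, and set 2 of the B lineage gate are limited by depth and by the number of nuclei.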
